A study of Mus musculus with 3 samples.

Results

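The protocadherin genes were taken as every row whose gene symbol begins with Pcdh, which gave 70 of the 49585 genes in the tables. By symbol, 14 belonged to the alpha cluster (Pcdha), 22 to the beta cluster (Pcdhb), 22 to the gamma cluster (Pcdhg) and 12 were non-clustered (Pcdh followed by a digit). Of the 14 alpha rows 2 carry the same symbol, Pcdha11, under different identifiers, and both were kept. Total RNA had been sequenced from the mid-brain of C57BL/6 mice at postnatal day 3 in 3 libraries, of which 2 were FGR (replicates 1 and 2) and 1 was WT (replicate 1). The labels list FGR and wild type (WT) under genotype, and the abbreviation FGR is used as they give it. No other treatment or allele is named in them. They do not say whether the FGR libraries came from separate animals. The p-values cover only these libraries, as the spread comes from the 2 FGR libraries and not from WT. The labels give no sex. Sex-linked genes, given below with Pcdh11x, differed between the 2 FGR libraries, so these were not taken from the same animal. The spread between the FGR libraries includes that difference.

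Protocadherins are calcium-dependent adhesion molecules of the cadherin superfamily and are most abundant in the nervous system. In the alpha and gamma clusters each variable exon has its own promoter and is spliced to constant exons that encode a common cytoplasmic end, while beta genes are single-exon genes without such constant exons. Promoter choice gives each neuron its own set of isoforms, which bind their like on other membranes and let a neuron tell its own branches from those of its neighbours. The C-type isoforms at the end of the alpha and gamma clusters are regulated differently from the others. The non-clustered delta-1 and delta-2 protocadherins are scattered over the genome and act in cell sorting, axon growth and synapse formation.

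The libraries held 58444481 and 46240262 counted reads (FGR) and 52874311 (WT). Counts were scaled by the TMM method to CPM, the reads of a gene relative to the scaled library total, and edgeR's quasi-likelihood test was fitted to the 25561 genes that passed the filter on low counts, with p-values adjusted by Benjamini-Hochberg and called under 0.05. Only the 2 FGR libraries inform the spread (1 residual degree of freedom), and the fit takes the single WT library to be as variable as they are. The fit also moderates each gene's spread with that of the other genes. Standard errors, p-values and intervals therefore rest largely on spread borrowed from other genes. Of all genes tested, 424 were called higher and 663 lower in FGR, and the median log2 fold change was 0.0051. The libraries also differed in regional and cell type markers. Of 7 hindbrain markers 5 were called higher, with summed levels of 43.4 and 36.9 CPM in FGR and 3.59 CPM in WT, where Hoxb2 was at 0. Of 8 midbrain markers 5 were called higher, with sums of 391 and 334 CPM in FGR and 246 CPM in WT. Of 10 markers of hypothalamus and ventral forebrain 8 were called lower, with sums of 13.7 and 14.0 CPM in FGR, where Nkx2-4 was at 0, and 60.4 CPM in WT. None of 8 neuronal markers was called by edgeR, and their sums were 4898 and 4766 CPM in FGR and 5049 CPM in WT. Their median log2 fold change was -0.116, with 5 below WT in both FGR libraries and 1 above. Of all genes tested 38.2% lay below WT in both and 38.5% above. Markers of other cell types were lower or not called: 7 of 9 for leptomeningeal fibroblasts, 4 of 7 for oligodendrocyte precursors, 3 of 7 for astrocytes, 4 of 6 for microglia and 3 of 6 for mural cells were called lower, none of them higher, and none was at 0. The part of these differences in the results on protocadherins was not tested. In bulk tissue, fewer cells of a type and less RNA per cell cannot be told apart.

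All 70 protocadherin genes passed the filter. A single member, Pcdh11x, was called lower in FGR and none was called higher, which is 1.43% of the members. Of all genes tested 4.25% were called, 1.66% higher and 2.59% lower, and of those at least as abundant as the lowest member 5.17% were called. As the alpha and gamma genes may share most of their reads, the 70 members are not separate observations. Their share is therefore not like for like with that of all genes. DESeq2 and limma-voom also called 1 member each. At an unadjusted p under 0.05, edgeR gave 6 members (Pcdhb17 and Pcdhb19 higher, Pcdh1, Pcdh8, Pcdh11x and Pcdh12 lower), DESeq2 gave 1 and limma-voom gave 6, while by edgeR 18.3% of all genes tested were past it, 8.41% higher and 9.92% lower. The non-clustered genes lay mostly below WT in FGR, whereas the alpha, beta and gamma genes lay close to it. The median log2 fold change was -0.10 for the 12 non-clustered genes, 0.04 for the alpha genes, 0.02 for the beta genes and 0.03 for the gamma genes. With library totals in place of TMM the beta median was -0.02 and the gamma median -0.01, the alpha median was -0.0093 without FGR replicate 1 and the gamma median -0.0052 without FGR replicate 2, so no direction is given for the clusters. The non-clustered median was -0.1774 without FGR replicate 1 and -0.0306 without FGR replicate 2, so its size rests largely on FGR replicate 2.

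**Figure D1:**
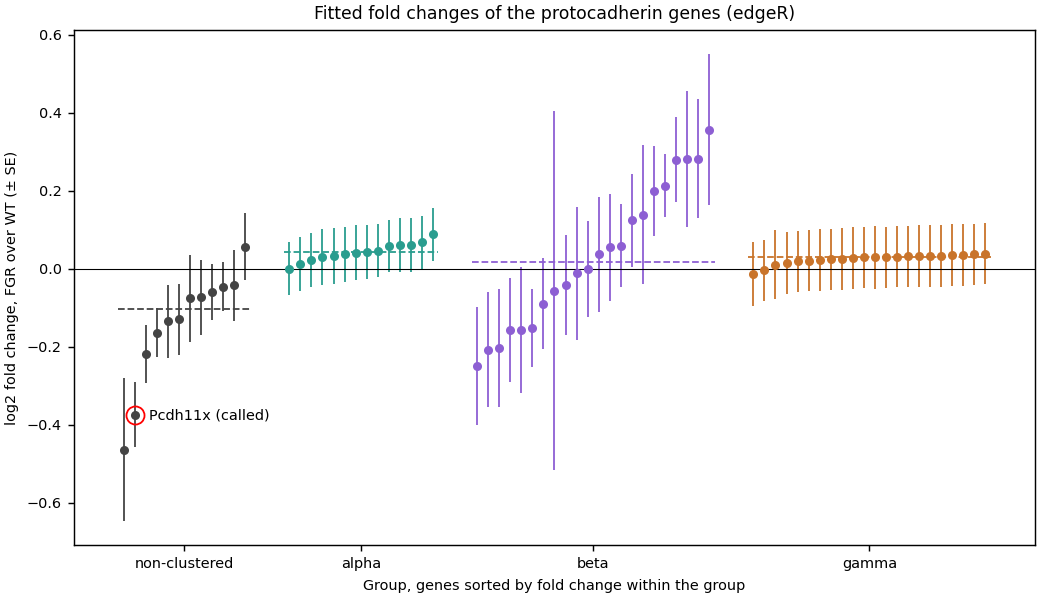
Log2 fold change, FGR over WT, of every protocadherin gene, sorted within its group. Points are fitted values, bars are ± SE and dashed lines are group medians; Pcdh11x (circled, at -0.37) is the only member called.

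Pcdh11x, an X-linked delta-1 protocadherin, had 215 and 196 CPM in FGR and 266 CPM in WT. Both FGR libraries lay below the WT library, as they did for 38.2% of all genes tested. The log2 fold change was -0.37 ± 0.084 (SE), with a 95% interval of -0.553 to -0.195 and an edgeR adjusted p of 0.0216. With a stricter filter on low counts the edgeR adjusted p was 0.0518, and over the alternatives it lay between 0.000105 and 0.0518. The FGR libraries differed from each other in sex-linked genes. Xist, the X-inactivation RNA, had 591 and 1.71 CPM in FGR and 541 CPM in WT, and the Y-linked Ddx3y had 2 and 2944 reads in FGR and 0 in WT. Against WT, the log2 ratio of Pcdh11x was -0.31 in FGR replicate 1, which like WT had Xist, and -0.44 in FGR replicate 2, which had Ddx3y.

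The other delta-1 genes were not called. Pcdh1 had 76.5 and 74.9 CPM in FGR and 84.8 CPM in WT, with a log2 fold change of -0.16 ± 0.063 (edgeR adjusted p = 0.173). Pcdh7, which binds protein phosphatase 1, had 372 and 353 CPM in FGR and 373 CPM in WT. Pcdh9 had 293 and 278 CPM in FGR and 275 CPM in WT and was the only non-clustered gene above WT in both FGR libraries. The 10 that were below WT in both were Pcdh1, Pcdh7, Pcdh8, Pcdh10, Pcdh11x, Pcdh12, Pcdh15, Pcdh17, Pcdh19 and Pcdh20, where 38.2% of all genes tested lay below WT in both and 38.5% above.

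None of the 6 delta-2 genes was called by edgeR. Pcdh8, a synaptic protein induced by neuronal activity, had 71.2 and 63.0 CPM in FGR and 78.1 CPM in WT (log2 fold change -0.22 ± 0.074, edgeR adjusted p = 0.118). With no filter on low counts Pcdh8 passed, with an edgeR adjusted p of 0.0348, and over its other alternatives it did not. Pcdh19, the X-linked gene whose human counterpart is mutated in an epilepsy of females, had 233 and 199 CPM in FGR and 237 CPM in WT. For this gene the FGR libraries lay farther apart than FGR replicate 1 and WT. Pcdh17, which recruits actin regulators to axon contacts, had 296 and 269 CPM in FGR and 310 CPM in WT (-0.13 ± 0.090). Pcdh10, required for the growth of striatal axons, had 429 and 392 CPM in FGR and 432 CPM in WT (-0.073 ± 0.097). The log2 ratio to WT was -0.063 and -0.201 for Pcdh17 and -0.01 and -0.14 for Pcdh10 in FGR replicates 1 and 2. Pcdh18 had 96.2 and 87.3 CPM in FGR and 95.6 CPM in WT, so that WT lay between the FGR libraries. Pcdh20 had 25.1 and 22.6 CPM in FGR and 25.2 CPM in WT. Over the 12 non-clustered genes the median log2 ratio to WT was -0.0293 in FGR replicate 1 and -0.1675 in FGR replicate 2.

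Pcdh12, a protocadherin of endothelial cells, was the lowest of the non-clustered genes, with 3.52 and 4.38 CPM in FGR and 5.43 CPM in WT (log2 fold change -0.46 ± 0.18, edgeR adjusted p = 0.188). Of 8 endothelial markers 3 were called lower, with summed levels of 139 and 143 CPM in FGR and 182 CPM in WT and none at 0. Their part in the value of Pcdh12 was not tested. Pcdh15, a component of the tip link of sensory hair cells together with Cdh23, had 65.1 and 63.9 CPM in FGR and 66.6 CPM in WT (-0.047 ± 0.063). Per length, on the TMM-scaled RPKM scale averaged over libraries, the non-clustered genes ran from 41.6 for Pcdh9 to 0.733 for Pcdh12. Pcdh7 (34.5), Pcdh17 (30.7), Pcdh10 (26.3) and Pcdh19 (21.3) followed Pcdh9, and Pcdh11x stood at 16.2. Pcdh17 has a deposited length of 9509 bases, where the GENCODE M21 exons cover 12991, so its place in this order is uncertain.

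**Figure D2:**
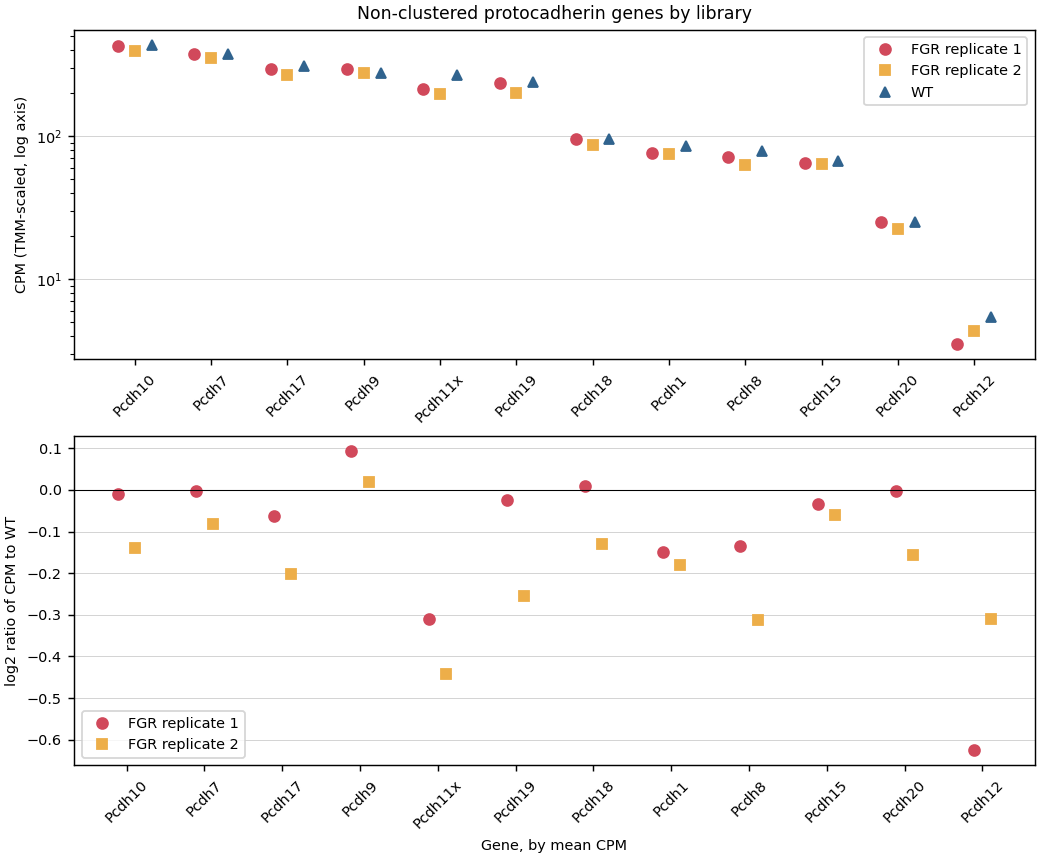
The 12 non-clustered protocadherin genes. The upper panel shows TMM-scaled CPM in each library on a log axis, and the lower panel the log2 ratio of each FGR library to WT; Pcdh11x, at -0.31 and -0.44, lies below WT in both.

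Alpha and gamma counts have to be read with their gene models in mind. In the GENCODE M21 annotation the 14 alpha genes share 2860 exon bases, which is 38.0 to 54.9% of their length, and the 22 gamma genes share 2116 bases, or 27.7 to 45.9%. Within a library the alpha counts were nearly equal, with a highest-to-lowest ratio of 1.33 in each. The gamma ratio was 1.68 and 1.58 in FGR and 1.64 in WT. The beta genes, without such constant exons, had ratios of 81.5 and 101 in FGR and 73.7 in WT. The next figures place the lowest isoform's count on the constant exons for every alpha gene. If those reads were distinct, the constant exons would carry 477 and 450 CPM per kb in FGR and 449 in WT. The remaining reads, summed over the isoforms' own exons, gave 48.4 and 46 in FGR and 47.1 in WT. Their contrast follows from this placing and cannot decide how the reads were counted. Taking the shared reads once, as those of the lowest isoform, gave 34.1 and 32.2 CPM per kb in FGR and 32.1 in WT. If constant-exon reads were counted at every isoform gene, up to 91.1 and 91.0% of the summed alpha count in FGR and 90.8% in WT would be shared, and 92.3 and 92.9% in FGR and 92.9% in WT for gamma. As the counting of constant-exon reads is not known, the counts of single alpha and gamma genes are treated as uncertain and not independent of each other. Taken once, the reads summed to 232 and 219 CPM in FGR and 223 CPM in WT for alpha, and to 557 and 550 CPM in FGR and 531 CPM in WT for gamma. This scaling was added after the data had been seen. No test was made of these sums.

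**Figure D3:**
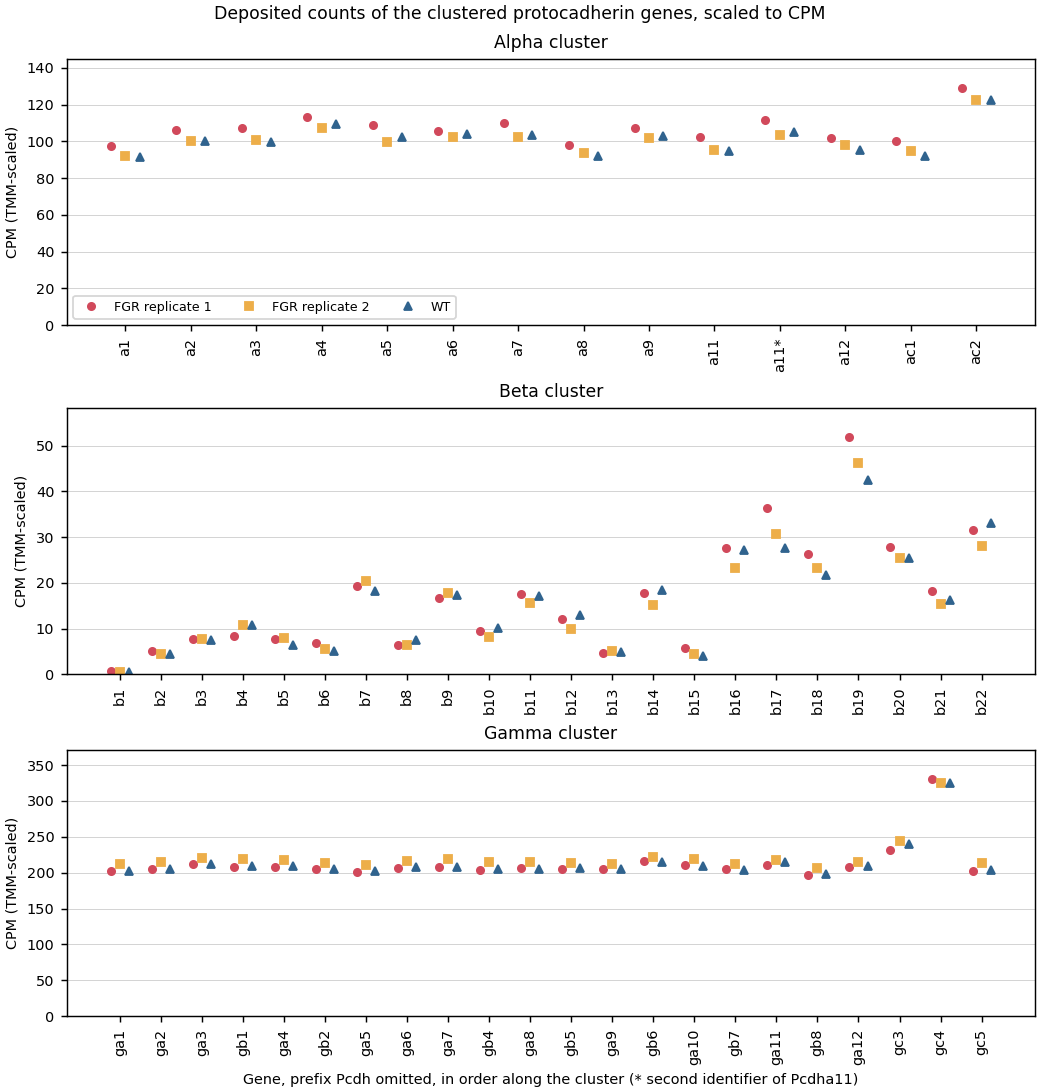
TMM-scaled CPM of each alpha, beta and gamma gene in cluster order, in each library. Alpha and gamma genes lie on near-flat levels, with a highest-to-lowest ratio of at most 1.68, while beta genes differ by up to 101 times within a library.

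No alpha gene was called by edgeR, and none had an unadjusted p under 0.05. Their log2 fold changes ran from 0.0004 (Pcdha6) to 0.088 (Pcdhac1), with standard errors near 0.069, and 8 of 14 were above WT in both FGR libraries, where 38.5% of all genes tested were. As these genes may share most of their reads, the 8 are not separate observations. Pcdhac2, which serotonergic axons need to spread and space themselves, had 129 and 122 CPM in FGR and 122 CPM in WT. It was the highest alpha gene in every library. The reads of an isoform above those of the lowest isoform of its cluster, Pcdha1, describe what its own exons add, and they move with the lowest isoform's own reads. On this measure Pcdhac2 had 31.8 and 30.4 CPM in FGR and 30.6 CPM in WT, or 23.7 and 23.9% of the alpha sum in FGR and 23.4% in WT. Pcdhac1 had 2.79 and 2.93 CPM in FGR and 0.0929 CPM in WT, from 162 and 134 reads in FGR and 5 reads in WT. Pcdha6 had 8.14 and 10.3 CPM in FGR and 12.2 CPM in WT. These differences between large counts were not tested. Of the 13 alpha isoforms above the lowest, 5 were higher in both FGR libraries, 3 lower in both and 5 split.

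No gamma gene was called by edgeR, and none had an unadjusted p under 0.05. Their log2 fold changes ran from -0.0127 (Pcdhgc3) to 0.0385 (Pcdhga10). Antisense exons overlap 1559 of the 3383 own bases of Pcdhgc3 and 2613 of the 2616 of Pcdhga10. Pcdhgc4, the isoform that protects neurons from cell death, had 331 and 325 CPM in FGR and 326 CPM in WT and was the highest gamma gene in every library. Above the lowest isoform, Pcdhgb8, a polymorphic pseudogene in the annotation, Pcdhgc4 had 134 and 119 CPM in FGR and 127 CPM in WT. That was 37.3 and 34.5% of the gamma sum in FGR and 38.1% in WT, so WT lay at the top of a narrow range. Pcdhgc3, which promotes dendrite branching, had 35.0 and 38.3 CPM above the lowest isoform in FGR and 41.4 CPM in WT. Pcdhgc5 had 6.24 and 7.35 CPM in FGR and 5.07 CPM in WT. Of the 21 isoforms above the lowest, 16 were higher in both FGR libraries, 2 lower in both and 3 split, where 38.5% of all genes tested were above WT in both and 38.2% below by their whole counts. All 21 values share the subtracted isoform, which was itself at 197 and 206 CPM in FGR and 199 CPM in WT.

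**Figure D4:**
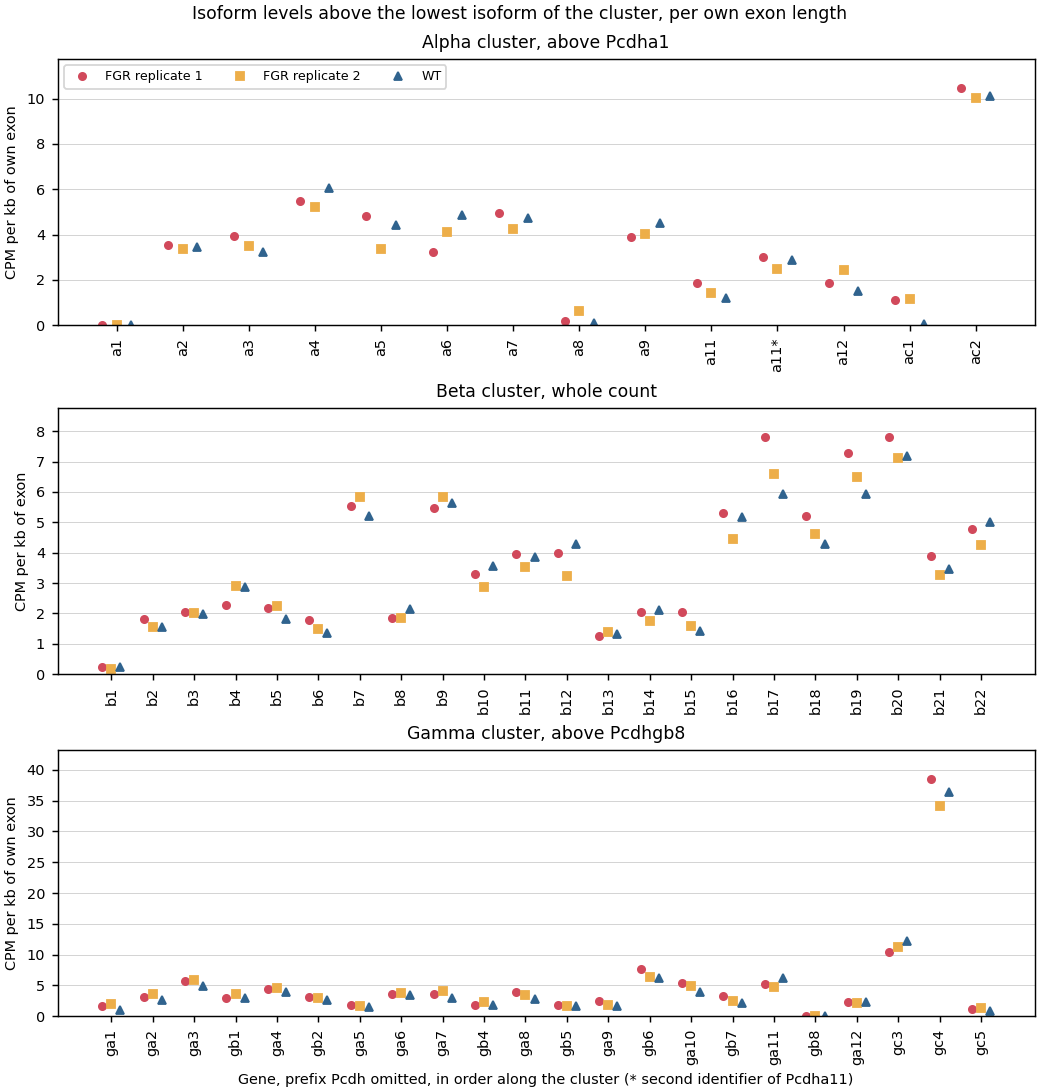
Level of each isoform in CPM per kb in each library, in cluster order. Alpha and gamma panels show reads above the lowest isoform over the length of its own exons, where Pcdhgc4 reached 38.6 and 34.1 in FGR and 36.5 in WT, and the beta panel shows whole counts over gene length.

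Among the 3 clusters, the beta genes differed most from each other in level and fold change and had the largest errors, with a median standard error of 0.142. Of the 22 genes, 9 were above WT in both FGR libraries, 5 below in both and 8 split. Of all genes tested 38.5% were above WT in both and 38.2% below, so the count above is near the background. None was called by edgeR. Pcdhb19 had 52.0 and 46.3 CPM in FGR and 42.4 CPM in WT (log2 fold change 0.21 ± 0.081, edgeR adjusted p = 0.169). Pcdhb17 had 36.4 and 30.7 CPM in FGR and 27.6 CPM in WT (0.28 ± 0.11, edgeR adjusted p = 0.182). Both FGR libraries lay above WT for these 2 genes. Pcdhb15 had the largest fitted difference upwards, with 5.78 and 4.42 CPM in FGR and 3.99 CPM in WT (0.36 ± 0.19). This came to 0.13 with FGR replicate 1 left out and to 0.53 with FGR replicate 2 left out. Pcdhb12 had the largest fitted difference downwards, with 12.1 and 9.80 CPM in FGR and 13.0 CPM in WT (-0.25 ± 0.15). Its value was -0.42 without FGR replicate 1 and -0.11 without FGR replicate 2. Antisense exons overlap 1927 of its 3034 bases, so its count is uncertain if counting ignored strand. Neither Pcdhb15 nor Pcdhb12 passed the test, and both ranks depend on which FGR library is used. Per length, beta genes later in the cluster were more abundant. The median TMM-scaled RPKM of the last 11 genes was 4.77 and 4.24 in FGR and 4.29 in WT, and that of the first 11 genes 2.17 and 2.23 in FGR and 2.13 in WT. Spearman's rho between order and RPKM over the 22 genes of a library, which share that library, was 0.60 and 0.57 in FGR and 0.57 in WT. Pcdhb1, the first gene, was the lowest in every library, at 37 and 21 reads in FGR and 31 in WT.

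Genes that act with protocadherins were read from lists, 1 of which also takes in other cadherins without regard to such a role. Of 16 regulators of promoter choice and chromatin, 1 was called higher and none lower, and 13 were above WT in both FGR libraries, with a median log2 fold change of 0.157. Of all genes tested 1.66% were called higher and 38.5% were above WT in both, with a median of 0.0051. Smc3, a cohesin subunit, had 62.5 and 63.1 CPM in FGR and 49.5 CPM in WT (0.34 ± 0.066, edgeR adjusted p = 0.00977). Ctcf, which with cohesin brings cluster promoters to their enhancers, had 64.2 and 64.4 CPM in FGR and 54.5 CPM in WT (edgeR adjusted p = 0.054). Ehmt2, a histone methyltransferase, was the most abundant of the list per length. None of 18 cytoplasmic partners was called by edgeR, where 4.25% of all genes tested were. An unadjusted edgeR p under 0.05 was found for 2, Ret (log2 fold change -0.33) and Abi2 (0.215), and for 18.3% of all genes tested. Ctnnb1 was the most abundant of these.

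Of 35 cell-surface partners and other cadherins, 1 was called higher and 2 lower, with a median log2 fold change of -0.047. Of all genes tested 1.66% were called higher and 2.59% lower. In both FGR libraries 8 of the 35 lay above WT and 18 below. Cdh7, a classical cadherin, had 67.4 and 61.7 CPM in FGR and 47.7 CPM in WT (0.44 ± 0.073, edgeR adjusted p = 0.00397). Clstn2, a calsyntenin of the postsynaptic membrane, had 39.2 and 33.9 CPM in FGR and 50.4 CPM in WT (-0.46 ± 0.089, edgeR adjusted p = 0.00977). Cdh23, the partner of Pcdh15 in the tip link, had 20.8 and 20.2 CPM in FGR and 28.2 CPM in WT (-0.46 ± 0.11, edgeR adjusted p = 0.0281). The groups did not overlap for any of these, where 38.5% of all genes tested lay above WT in both FGR libraries and 38.2% below. Of 10 genes of the tip-link complex 2 were called lower, Cdh23 and the motor protein Myo7a (29.2 and 29.6 CPM in FGR, 37.6 CPM in WT), and 9 lay below WT in both FGR libraries, where 2.59% of all genes tested were called lower and 38.2% lay below WT in both. Of these 9, Tmc1 (4 and 5 reads in FGR, 11 in WT), Tmc2 (5 and 6 reads in FGR, 12 in WT) and Ush1g (14 and 7 reads in FGR, 22 in WT) rested on few reads. Clstn1 was the most abundant surface gene per length and Cib2 the most abundant of the tip-link list.

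**Figure D5:**
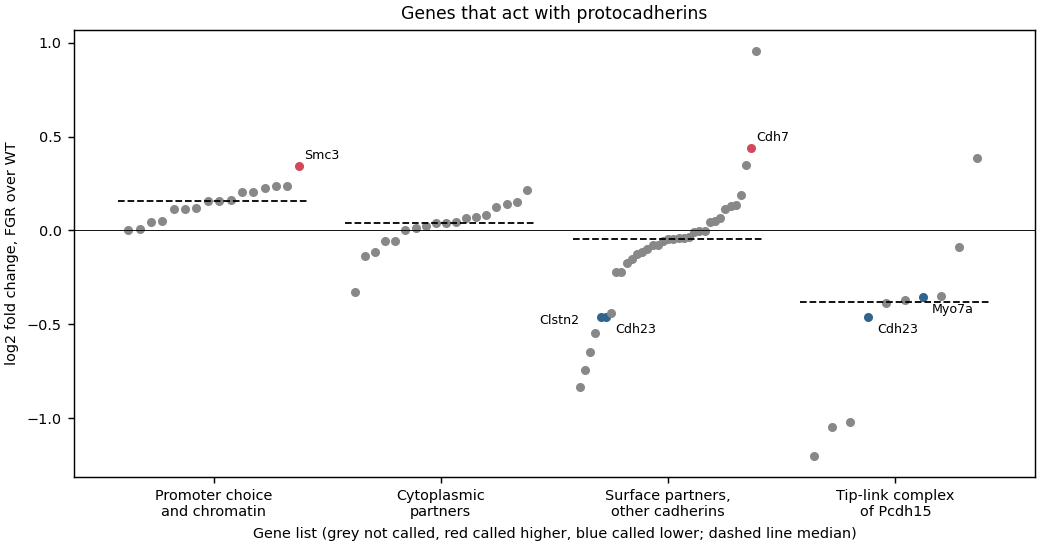
Log2 fold change, FGR over WT, of the genes of 4 lists of protocadherin regulators and partners, the third of which also holds other cadherins. Each point is a gene, colour marks edgeR calls, and the dashed lines are the list medians of 0.157, 0.038, -0.047 and -0.381.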

How the data were processed

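The authors deposited, for each library, the read count per gene, a gene length in bases and an RPKM value. Per the submitters' processing notes HISAT2 was used (no version); which counter, strand setting, genome build and annotation were used is not given in the sources used here. The deposited RPKM equals count over length and library total, and was used only to check this; levels per length were recomputed with TMM scaling. Deposited lengths equalled GENCODE M21 union exon lengths for 68 of 70 members and 89.9% of matched genes. Exons of 17 members overlap antisense exons, whose reads cannot be told apart if counting ignored strand.

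Counts were fitted with edgeR 4.0.16 (TMM, filterByExpr minimum count 10, quasi-likelihood test) in R 4.3.3 across all genes, and the scripts were tested on simulated data. DESeq2 1.42.0, limma 3.58.1 (voom), other scalings and filters, a robust fit and leaving out a library were alternatives. A standard error is the log2 fold change over the square root of F. The members and lists were chosen with earlier results of these data known. Named genes were every called and non-clustered member, the C-type isoforms, and the most abundant and most changed of each group, as well as the called and most abundant gene of each list; others named were chosen after their values were seen. The FGR libraries were not duplicates (r = 0.9965, with 7.67% of genes at equal counts).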

Additional observations from a re-analysis of the deposited data

How the results depend on the processing

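Pcdh11x stayed lower under every alternative run, with a log2 fold change between -0.45 and -0.31 when 1 FGR library was left out (values with no test), and missed the threshold only with the stricter filter (edgeR adjusted p = 0.0518). The number of members called lower was 2 with no filter, where Pcdh8 was added, and 0 with the stricter filter. Over all genes, 695 were called higher with no filter, 246 with the stricter filter and 124 with DESeq2, against 424, and 1362, 431 and 233 lower, against 663. With library totals alone 1027 were called lower, calls were 24.4% higher against 39.0% with TMM, and the median of all genes was -0.0343. The cause was not tested. Under library totals the beta median was -0.0216 and the log2 ratio of summed gamma CPM -0.0157. The non-clustered median was between -0.1774 and -0.0306 when 1 FGR library was left out. The beta median was 0.0055 without FGR replicate 1 and 0.0652 without FGR replicate 2.

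Signs turned only for genes that were not called. Under library totals the log2 fold change was -0.0295 for Pcdhgc4, -0.0087 for Pcdhgc5, -0.0085 for Pcdha5, -0.0023 for Pcdha7, -0.0392 for Pcdha6, -0.0081 for Pcdhgb6, -0.0068 for Pcdhga3 and -0.0012 for Pcdhga10. With no filter it was -0.0052 for Pcdhgc4 and -0.0149 for Pcdha6, and without Rn7s1, Rn7s2 and Rn7sk it was 0 and -0.0097. Pcdha6 was at -0.0036 with RLE size factors and with DESeq2, and at -0.0029 with the stricter filter. Leaving out 1 FGR library at a time gave ranges of -0.141 to 0.0074 for Pcdh18, -0.0094 to 0.0782 for Pcdhac2, -0.0522 to 0.0151 for Pcdhgc3, -0.0137 to 0.0227 for Pcdhgc4 and -0.0064 to 0.0566 for Pcdhgc5. The ranges were -0.042 to 0.0896 for Pcdha5, -0.0228 to 0.0838 for Pcdha7, -0.0333 to 0.0224 for Pcdha6 and -0.0191 to 0.122 for Pcdhb20. The single WT library limits every comparison. No paired analysis was possible because the groups share only 1 replicate number.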

Other observations

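Of 10 genes that overlap or lie among the protocadherin clusters, none was called by edgeR and none had an unadjusted p under 0.05. Taf7, a subunit of the general transcription factor TFIID, had 26.8 and 28.8 CPM in FGR and 26.2 CPM in WT. The lowest unadjusted p of the list was 0.0587, for Gm37446, which had 10.2 and 8.42 CPM in FGR and 11.6 CPM in WT.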
